A study of Homo sapiens with 18 samples.

Results

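SK-N-MC cells that had grown for 4 weeks in 50 nM rotenone were compared with SK-N-MC cells that had grown for 1 week at the same dose. The question was how expression moves with the length of exposure at the high dose, and vehicle arrays do not enter the comparison. The members were taken from the labels: 3 arrays labelled 50nM rotenone and 4 weeks (4w50 nM) and 3 labelled 50nM rotenone and 1 week (1w50 nM), 6 of the 18 arrays of the series. SK-N-MC is a human neuroepithelioma line of the Ewing tumour family, so each group is the same established line and no neuron. The medium held no pyruvate, and the labels' treatment protocol gives 50 nM as causing some cell death and 5 nM as the non-lethal dose. The other 12 arrays, 3 each of vehicle (0.05 % ethanol) and 5 nM rotenone at either week, lent their spread to the fit and give the change with time without rotenone and at the low dose. Each array carried RNA pooled from 5 dishes, and the labels describe 3 experiments, but no label ties an array to an experiment.

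Rotenone binds complex I, the entry point of NADH electrons into the mitochondrial respiratory chain, and it also binds tubulin and keeps microtubules from assembling. When complex I is blocked, NADH accumulates, aspartate becomes scarce and the cell leans on glycolysis for ATP. Mitochondrial faults of this kind are known to switch on the integrated stress response, in which phosphorylation of the initiation factor eIF2 slows translation in general but favours the transcription factor ATF4, and ATF4 with its partner CHOP then raises genes for amino acid uptake, amino acid synthesis and tRNA charging. The oxygen-sensing factors HIF1A and EPAS1 drive another set of genes, for glucose uptake, glycolysis and vessel growth.

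Some arrays need a word before the results. The group means of the study's own supplementary gene lists are matched by the deposited arrays only when the array labelled 1w50 nM replicate 3 stands with 5 nM and the array labelled 1w5 nM replicate 2 stands with 50 nM, so the label of 1 of the 6 arrays is in doubt. By its signals 1w50 nM replicate 3 was as near to either group, with correlations of 0.981 to 0.984 with the other 1w50 nM arrays and of 0.982 to 0.985 with the other 1w5 nM arrays. The array labelled 1w5 nM replicate 2 was nearer to its labelled group, at 0.981 to 0.988 against 0.973 to 0.98 with 1w50 nM, and the exchange widened the median SD within 1w50 nM from 0.145 to 0.177 on the log2 scale. The labels were kept, and results are also given with these arrays exchanged or without 1w50 nM replicate 3. Among the 4-week arrays, replicate 3 stood apart, since it lay nearest to the 1-week mean for 746 (68.3%) of the 1092 genes that rose at least 2-fold and for 249 (59.4%) of the 419 that fell. The spiked hybridization controls, which carry no cell RNA, had a mean log2 signal of 8.91 to 9.01 on the 4w50 nM arrays and 9.69 to 9.98 on the 1w50 nM arrays (exact permutation test, two-sided, p = 0.1, the smallest that 3 against 3 allows). They were as low on the 4w5 nM arrays (8.69 to 9.1) and stood at 9.8 to 10.1 on the vehicle arrays, so a lower control signal moved with 4 weeks of rotenone, and its part in the results was not tested. The 3' to 5' ratio of ACTB, a sign of RNA quality, had a log2 value of 0.0347 to 0.048 at 1 week and, without overlap, of 0.135 to 0.208 at 4 weeks, while that of GAPDH overlapped (0.061 ± 0.068, SD, n = 3, and -0.027 ± 0.074). The rRNA probe sets were lower at 4 weeks, again without overlap (mean log2 signal 4.95 to 5.01 and 4.56 to 4.78), and changed by -0.22 at 5 nM and by 0.071 in vehicle; the part of these values in the results was not tested. The array medians, 90.2 to 92.8 and 94.4 to 95.9, were close.

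The signal is the model-based expression index of dChip (MBEI), a linear brightness per probe set, and of 9162 genes tested 4689 differed between 4 and 1 weeks. At 4 weeks 2794 genes (30.5%) were higher and 1895 (20.7%) were lower at an adjusted p below 0.05 (limma, fitted over all 18 arrays, Benjamini-Hochberg adjustment). A change of at least 2-fold was reached by 1092 of the higher genes (11.9% of those tested) and by 419 of the lower genes (4.57%). The 3 arrays of 1 group lay wholly above the 3 of the other for 5709 genes (62.3%). The median change over all genes was 0.032 on the log2 scale, and the changes ran from -3.65 to 3.72. Rises made up 72.3% of the genes changed at least 2-fold with the signals as deposited and 54.6% (778 of them higher, 647 lower) after quantile normalization, which moved the median of all genes to -0.081. After it 2310 of the 9162 genes were higher and 2630 lower, the counts to set beside those of lists after quantile normalization. Without 4w50 nM replicate 3 the counts were 1182 and 490, without 1w50 nM replicate 3 they were 1150 and 416, and with the exchange 933 and 440. In RNA of whole cultures fewer cells of a kind and less RNA per cell cannot be told apart. Of the 1511 genes changed at least 2-fold, 1270 passed the same limits in the same direction with the exchange.

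**Figure D1:**
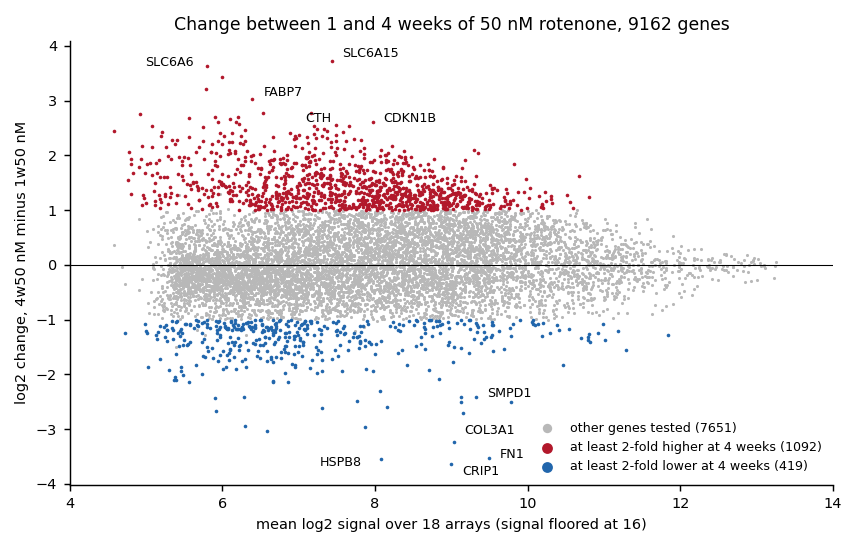
The log2 change between 1 and 4 weeks of 50 nM rotenone (y axis) of 9162 genes against their mean log2 signal over 18 arrays (x axis), a point per gene. The 1092 genes at least 2-fold higher at 4 weeks outnumber the 419 at least 2-fold lower, and the labelled falls FN1 and CRIP1 lie below -3.5.

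The largest rise was that of SLC6A15, a sodium-dependent transporter of neutral amino acids. Its signal was 29.3, 51.4 and 63.4 at 1 week and 699.6, 655 and 481 at 4 weeks. All arrays of 4 weeks lay above those of 1 week, by 13.2-fold on average (log2 change 3.72 ± 0.27, SE, adjusted p = 2.74e-08). SLC6A6, the taurine transporter, came next with 4.78, 14.2 and 23.3 at 1 week and 253, 203 and 219.8 at 4 weeks (log2 change 3.63 ± 0.40, SE, adjusted p = 1.29e-06). Its 1-week signals were at or near the floor of 16 below which values were raised, so that this change is understated. NAP1L3, a nucleosome assembly protein, rose by 3.44 and CCPG1, an endoplasmic reticulum receptor for autophagy, by 3.21 on the log2 scale. CCPG1 lay below the floor on 2 of the 1-week arrays and NAP1L3 on 1, and these changes are understated as well. FABP7, the brain fatty acid binding protein that marks radial glia, had 40.6, 46.3 and 29.5 at 1 week and 245, 263 and 459.9 at 4 weeks (log2 change 3.02 ± 0.41, SE, adjusted p = 9.31e-06). Here the highest 4-week array was replicate 3, unlike in the other leading rises. CDKN1B encodes p27, an inhibitor of cyclin-dependent kinases that holds cells in G1. Its signal was 100.3, 129 and 118 at 1 week and 866, 615 and 661 at 4 weeks, a 6.13-fold rise (log2 change 2.62 ± 0.16, SE, adjusted p = 1.96e-08). The others of the 14 largest rises lay between 2.61 and 2.78. They were SNX16 and PDZD8, which serve endosomes and contacts of the endoplasmic reticulum, MANEA, a mannosidase of the Golgi, CSGALNACT2, an enzyme of chondroitin sulfate synthesis, SERPINI1 or neuroserpin, the lipid transfer protein BLTP3B, the scaffold FRMD4B and YEATS4, a reader of acetylated histones. FRMD4B reached the filter of 50 on the 4w50 nM arrays only, so that it entered through the group where it is high. FRMD4B and CSGALNACT2 lay below the floor on 2 of the 1-week arrays and PDZD8 on 1, and their rises are understated. None of the 14 calls was lost without 4w50 nM replicate 3, without 1w50 nM replicate 3 or with the exchange. The genes were picked from these same arrays for their size and lack of overlap, so this adds little support.

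The 14 largest falls held genes of several kinds, with FN1 and COL3A1 from the matrix. CRIP1, a small LIM-domain protein, had the largest fall, from 1098, 1177 and 923 at 1 week to 52.6, 66.2 and 175 at 4 weeks (log2 change -3.65 ± 0.62, SE, adjusted p = 0.000101). FN1, fibronectin, was at 1414, 1439.8 and 1674 at 1 week and 64.2, 63.9 and 533 at 4 weeks (log2 change -3.54 ± 0.86, SE, adjusted p = 0.00224). Replicate 3 kept several times the FN1 signal of the other 4-week arrays, and without it the log2 change was -4.55. COL3A1, the fibrillar collagen type III, was at 711, 703 and 954 at 1 week and 60.1, 51.0 and 188 at 4 weeks (log2 change -3.23 ± 0.78, SE, adjusted p = 0.00222), with the same array nearest to the level of 1 week. HSPB8, a small heat shock protein of chaperone-assisted autophagy, fell from 350.1, 429 and 613 to 29.1, 17.9 and 112 (log2 change -3.54 ± 0.88, SE, adjusted p = 0.00275). TNFAIP6, a hyaluronan-binding protein, had the smallest of these 14 falls and did not show the gap of replicate 3: its signals were 282, 294 and 299.8 at 1 week and 40.4, 74.2 and 46.2 at 4 weeks (log2 change -2.49). Between them came the elastin-associated EMILIN1 (-3.04), the neurturin receptor GFRA2 (-2.97), the neuronal pentraxin NPTX2 (-2.94), the LIM protein CSRP1 (-2.70) and the ribosomal protein paralog RPL39L (-2.61). CYP11B2, the aldosterone synthase, fell by 2.66, BACE2, a protease that cleaves the amyloid precursor, by 2.6, and OLFML3 and ADRB3, the beta-3 adrenergic receptor, each by 2.51 on the log2 scale; CYP11B2 has a near-identical copy, CYP11B1, from which a probe set may not tell it apart. EMILIN1 and CYP11B2 lay below the floor of 16 on 2 of the 4-week arrays, and their falls are understated. All 14 falls remained called without 4w50 nM replicate 3, without 1w50 nM replicate 3 and with the exchange. As with the rises, the genes were picked from these same arrays, so this adds little support.

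**Figure D2:**
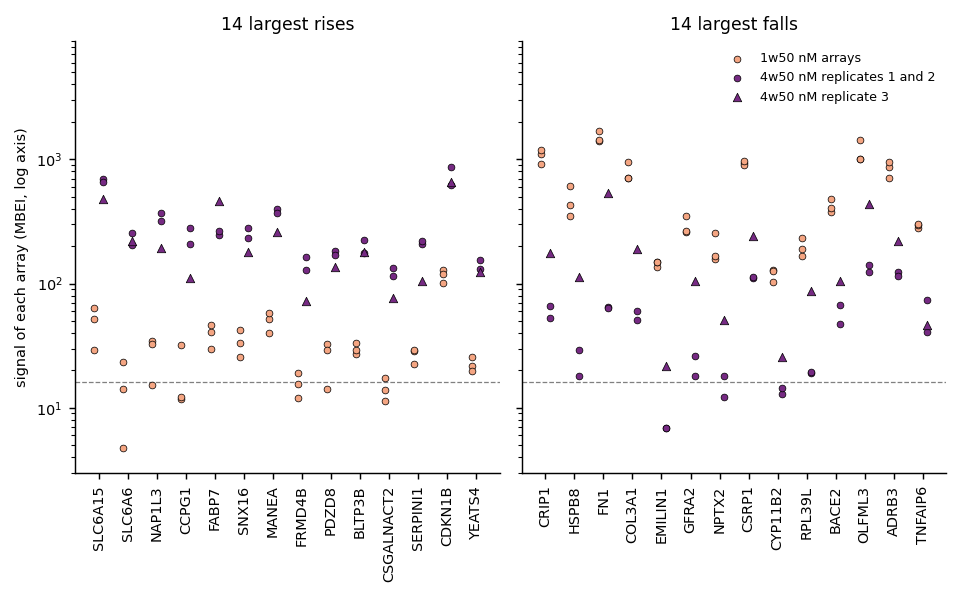
Signal of each 50 nM array (log axis) for the 14 largest rises (left) and the 14 largest falls (right), with 3 arrays at 1 week and 3 at 4 weeks per gene and the floor of 16 as a dashed line. The groups do not overlap in any of these genes, by the way they were chosen, and in most of the falls the triangle, 4w50 nM replicate 3, lies nearest to the 1-week arrays.

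Most genes that ATF4 and CHOP are known to drive were higher at 4 weeks. 20 of the 30 measured members were higher (66.7%) and 1 lower (3.33%) at 4 weeks (all genes 30.5% and 20.7%), with a median log2 change of 0.87 against 0.032 for all genes. CTH, which makes cysteine from cystathionine, was at 95.2, 83.2 and 98.8 at 1 week and 601, 585 and 438 at 4 weeks (log2 change 2.54 ± 0.20, SE, adjusted p = 5.08e-08). Every 4-week array exceeded every 1-week array for CTH. TRIB3, a pseudokinase that CHOP induces, had 358, 369 and 383 at 1 week and 2267, 1947 and 892 at 4 weeks (log2 change 2.09 ± 0.55, SE, adjusted p = 0.00425), the lowest 4-week value again in replicate 3. ASNS, asparagine synthetase, was at 365, 440.1 and 533 at 1 week and 1916, 1872 and 1078 at 4 weeks (log2 change 1.83 ± 0.24, SE, adjusted p = 6.11e-06). CEBPG, a partner of ATF4 on DNA, rose from 159.7, 194 and 210.2 to 645, 652 and 483 (log2 change 1.66 ± 0.16, SE, adjusted p = 4.4e-07). DDIT3, which encodes CHOP itself, rose by 1.31, and so did the amino acid transporters SLC7A1 (1.32), SLC7A11 (1.32) and SLC7A5 (1.19). The enzymes of serine synthesis PSPH (1.59) and PSAT1 (1.20) and of the mitochondrial folate cycle MTHFD2 (log2 1.04, adjusted p = 8.51e-06) rose with them. The 1 member that was lower was NUPR1 (-0.60). The transcript of ATF4, whose control is largely in translation, did not pass the test, with 2387, 2659.6 and 2817 at 1 week and 3879, 3345 and 2714 at 4 weeks (log2 change 0.33 ± 0.15, SE, adjusted p = 0.0711), nor did the serine hydroxymethyltransferase SHMT2 (log2 change 0.30, adjusted p = 0.0794). Without 4w50 nM replicate 3, 21 members were higher and 0 lower. After quantile normalization 17 were higher and 3 lower, with a median of 0.63, and after median scaling 20 and 3.

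In RefSeq promoter sequences (GRCh38.p14, from 250 bases before to 50 bases after a gene's start) the CARE motif to which ATF4 and CHOP complexes bind, TGATGNAA read on both strands, was looked for, since these genes moved together. A promoter was at hand for 25 of the 30 measured members. The motif stood in 4 of them (16%), in 1.99% of the 7482 promoters of genes tested and in 3.83% of all 27305 promoters of the table. Among the members that rose it stood in 3 of 18 promoters (16.7%), close to the share of the whole list. The list was chosen as known targets of these factors, so a share above that of all promoters is no independent support. The matches with 20 bases on each side are shown for each of the 4 genes, with the motif, or its reverse complement in CHAC1, in capitals.
CEBPG: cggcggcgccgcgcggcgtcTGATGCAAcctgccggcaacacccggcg
CHAC1: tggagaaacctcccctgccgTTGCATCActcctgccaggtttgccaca
SLC7A1: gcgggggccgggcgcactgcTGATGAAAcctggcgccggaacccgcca
SLC1A5: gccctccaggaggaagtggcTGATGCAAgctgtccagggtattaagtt
The windows are chr19:33374051-33374098 on the plus strand for CEBPG, chr15:40953242-40953289 on the plus strand for CHAC1, chr13:29595654-29595701 on the minus strand for SLC7A1 and chr19:46784884-46784931 on the minus strand for SLC1A5. CEBPG, CHAC1, a glutathione-degrading enzyme (log2 change 0.79), and SLC7A1 rose, and SLC1A5, a glutamine transporter, had a log2 change of -0.31 (adjusted p = 0.0965), which did not pass. Over the genes that rose at least 2-fold the motif stood in 2.12% of 943 promoters, and over those that fell in 1.64% of 305. A match describes these letters only, and sites farther from the start were not looked at.

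Of the cytosolic tRNA synthetases, which load amino acids on tRNAs, 11 of the 16 measured members were higher (68.8%) and 1 lower (6.25%) (median log2 change 0.52). TARS1, for threonine, was at 822, 945 and 902 at 1 week and 2405, 2373 and 1671 at 4 weeks (log2 change 1.26 ± 0.16, SE, adjusted p = 5.91e-06). WARS1, for tryptophan, rose by 0.96, EPRS1, for glutamate and proline, by 0.84 and IARS1, for isoleucine, by 0.83. HARS1, for histidine, was the 1 that fell (-0.35), and AARS1, for alanine, did not pass with 1183, 1142 and 1230.4 at 1 week and 2003, 1747 and 1172 at 4 weeks (log2 change 0.43 ± 0.24, SE, adjusted p = 0.141). For AARS1 replicate 3 lay at the level of 1 week while the other 4-week arrays were higher. The list of endoplasmic reticulum chaperones and their regulators was more even: 8 of the 23 measured members were higher (34.8%) and 2 lower (8.7%), with a median of 0.064. Its largest rises were in the degradation factors EDEM1 (log2 1.44, adjusted p = 0.000145) and SEL1L (log2 1.41, adjusted p = 0.00777) and in the BiP co-chaperones DNAJB9 (log2 1.37, adjusted p = 0.000243) and DNAJC3 (log2 1.18, adjusted p = 0.0402). P4HB, protein disulfide isomerase, and SEC61B, of the translocation channel, were the 2 that fell (-0.87 and -0.33), while PDIA6 had a log2 change of -0.10 (adjusted p = 0.504). Of the chaperones of the cytosol 2 of the 22 measured members were higher (9.09%) and 4 lower (18.2%). The small heat shock proteins made up most of these falls: HSPB8, above, HSPB1 with 2043, 2079 and 1734 at 1 week and 835, 775 and 967 at 4 weeks (log2 change -1.19 ± 0.27, SE, adjusted p = 0.00134) and CRYAB (-0.64).

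Genes of the response to low oxygen moved upward, without an exception among the members that passed with all arrays and the signals as deposited. 10 of the 19 measured members were higher (52.6%) and 0 lower (0%), and the median was 0.79 with all arrays and 0.43 without 4w50 nM replicate 3. BHLHE40, a repressor induced by HIF1A, was at 18.7, 19.8 and 18.3 at 1 week and 51.0, 45.5 and 256 at 4 weeks, so that 1 array set the size of its rise (log2 change 2.15, and 1.35 without that array). ERO1A, the oxidase of disulfide formation, showed no such gap, with 101, 73.5 and 92.6 at 1 week and 294, 276 and 259.6 at 4 weeks (log2 change 1.65 ± 0.15, SE, adjusted p = 1.75e-07). P4HA2, a collagen prolyl hydroxylase, rose by 1.54, MXI1, a repressor of growth genes, by 1.42, VEGFA by 1.41, and the factors EPAS1 and HIF1A by 1.35 and 0.79. BNIP3 and BNIP3L, receptors for mitophagy, did not pass: BNIP3 had 308, 351 and 505 at 1 week and 482, 459.8 and 1485 at 4 weeks (log2 change 0.86 ± 0.37, SE, adjusted p = 0.0601). Without 4w50 nM replicate 3, 9 members of this list were higher and 1, ADM (-1.69), lower. After quantile normalization 9 were higher and 1 lower, with a median of 0.62. The core letters of the hypoxia response element, ACGTG read on both strands, stood in 7 of the 15 promoters at hand (46.7%) and in 25.9% of the promoters of genes tested. Among the members that rose it was 4 of 9 (44.4%), no larger a share than in the whole list. Over all genes at least 2-fold higher it was 29.1%, and over those at least 2-fold lower 20.7%. The list was chosen from known genes of this response, so its share is no independent support.

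In glycolysis 7 of the 22 measured members were higher (31.8%) and 5 lower (22.7%), against 6 and 7 after quantile normalization; the first shares lay near those of all genes. PDK1, the kinase that shuts pyruvate dehydrogenase, was at 24.6, 24.7 and 35.6 at 1 week and 171, 135 and 211 at 4 weeks (log2 change 2.60 ± 0.34, SE, adjusted p = 7.27e-06). SLC2A3, the neuronal glucose transporter GLUT3, was at 26.2, 29.1 and 34.4 at 1 week and 146, 119.7 and 227 at 4 weeks (log2 change 2.41 ± 0.31, SE, adjusted p = 6.46e-06), the highest value in replicate 3. PFKFB3, which makes the activator of phosphofructokinase, rose by 1.23, and PFKL, the liver phosphofructokinase subunit, fell from 1103, 898 and 793 to 383, 339 and 533 (log2 change -1.17 ± 0.17, SE, adjusted p = 1.9e-05). PKM, ALDOA, TPI1 and PFKFB4 were lower as well, with log2 changes of -0.88, -0.43, -0.38 and -0.58. The median of the list, -0.040, lay below that of all genes with the signals as deposited and above it after quantile normalization. In the tricarboxylic acid cycle 9 of the 19 measured members were higher (47.4%) and 3 lower (15.8%). Both subunits that give succinyl-CoA ligase its nucleotide specificity rose: SUCLG2, for GTP, from 91.5, 95.8 and 85.9 to 488, 559.6 and 336 (log2 change 2.31 ± 0.22, SE, adjusted p = 2.67e-07) and SUCLA2, for ATP, by 1.56. PCK2, the mitochondrial PEP carboxykinase, which is also a target of ATF4, rose by 1.28 and IDH3A, the catalytic subunit of the NAD-linked isocitrate dehydrogenase, by 1.20, whereas its partners IDH3B and IDH3G fell (-0.28 and -0.38), as did IDH2 (-0.52). MDH1 and MDH2, the malate dehydrogenases, had log2 changes of -0.11 and 0.20 that did not pass.

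Of the subunits and assembly factors of complex I, the target of rotenone, 9 of the 35 measured members were higher (25.7%) and 6 lower (17.1%), against 8 and 11 after quantile normalization, with a median log2 change of -0.045. The assembly factor NDUFAF7 was at 6.01, 17.0 and 10.4 at 1 week and 61.1, 48.2 and 66.9 at 4 weeks (log2 change 1.83 ± 0.24, SE, adjusted p = 7.93e-06). NDUFA5, a subunit of the matrix arm, was at 617, 680.3 and 787 at 1 week and 1623, 1678 and 1545 at 4 weeks (log2 change 1.22 ± 0.10, SE, adjusted p = 1.23e-07), with no overlap between the weeks. NUBPL, which inserts iron-sulfur clusters, rose by 1.12 and NDUFS1, the largest iron-sulfur subunit, by 1.03. The falls were smaller, from -0.80 for NDUFA13 to -0.29 for NDUFS3, and NDUFS6 did not pass (-0.26). In complexes II to V 6 of the 42 measured members were higher (14.3%) and 12 lower (28.6%). COX7A1, the muscle isoform of a cytochrome oxidase subunit, fell most (log2 change -2.01 ± 0.39, SE, adjusted p = 0.000335), and SDHD, which anchors complex II, and COX11, a copper chaperone, rose by 0.70 and 0.69. ATP5F1D, the delta subunit of ATP synthase, fell by 0.66 on the log2 scale, and its beta subunit ATP5F1B had a change of 0.10 that did not pass. Among mitochondrial ribosomal proteins 12 of the 47 measured members were higher (25.5%) and 10 lower (21.3%), against 11 and 19 after quantile normalization, with MRPS18C and MRPL44 highest (1.48 and 1.47) and MRPL24 lowest (-0.95). Among chaperones and carriers of the mitochondrion 10 of the 30 measured members were higher (33.3%) and 4 lower (13.3%), against 9 and 7 after quantile normalization. CLPX, the unfoldase of the matrix protease ClpXP, rose by 1.37, SLC25A4, the ADP/ATP carrier, by 1.20 and POLG2, of the mitochondrial DNA polymerase, by 0.87, while the import channel TOMM40 fell (-0.81) and the chaperonin HSPD1 had a change of 0.057 that did not pass.

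Of the defences against oxidants 10 of the 35 measured members were higher (28.6%) and 10 lower (28.6%), against 6 and 13 after quantile normalization. SLC7A11, the cystine importer, was at 501, 695 and 729 at 1 week and 1902, 1704 and 1229 at 4 weeks (log2 change 1.32 ± 0.19, SE, adjusted p = 2.16e-05), NFE2L2, which encodes NRF2, rose by 1.04, GCLM, of glutathione synthesis, by 1.01 and CAT, catalase, by 0.80. The falls held GPX4, KEAP1, GSTP1 and PRDX2 (-0.70, -0.70, -0.76 and -0.41), and SOD1 and PRDX1 did not pass (-0.27 and -0.14). Genes of lysosomal hydrolases and membrane proteins fell in 15 of 35 and rose in 5 (14.3% higher and 42.9% lower; median -0.32). SMPD1, the acid sphingomyelinase of Niemann-Pick disease, was at 1267, 1188 and 1236 at 1 week and 217, 199.9 and 283 at 4 weeks (log2 change -2.41 ± 0.27, SE, adjusted p = 1.62e-06), and here replicate 3 was close to the other 4-week arrays. GRN, progranulin, fell by 1.62, CTSK by 1.41 and CTSB by 1.35, the latter being cathepsins, while TPP1 had a log2 change of -0.18 that did not pass. The 5 that rose were LAMP2 (0.85), LIPA (0.65), IDS (0.65), NEU1 (0.52) and PPT1 (0.44), named after their values were seen. Proteasome subunits were lower in 14 of 34 and higher in 3 (8.82% higher and 41.2% lower), the base subunit PSMD2 with 2245, 2294 and 2307 at 1 week and 1156, 1070.3 and 1411 at 4 weeks (log2 change -0.92 ± 0.23, SE, adjusted p = 0.00272) and the catalytic subunit PSMB6 with a log2 change of -0.83. The assembly factor PSMD10, or gankyrin, rose by 1.12 and the ATPase PSMC6 by 0.91. In autophagy 9 of the 26 measured members were higher (34.6%) and 6 lower (23.1%), against 7 and 10 after quantile normalization: ATG2B, a lipid transfer protein of the growing membrane, UVRAG and ATG5 rose (1.46, 0.97 and 0.93), and TFEB, the factor that drives lysosomal genes, fell from 75.7, 65.9 and 73.4 to 32.2, 21 and 30.6 (log2 change -1.38 ± 0.28, SE, adjusted p = 0.00046).

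Of tubulins, which rotenone also binds, and their folding factors 6 of the 24 measured members were higher (25%) and 10 lower (41.7%), and the median was -0.35. The largest falls beside TPPP were in beta tubulins: TUBB6 was at 2106, 2011 and 2429.7 at 1 week and 720.0, 698 and 1257 at 4 weeks (log2 change -1.34 ± 0.37, SE, adjusted p = 0.00558), TUBB4A fell by 1.39, the neuronal TUBB3 by 1.08 and TUBB4B by 0.74 on the log2 scale, though tubulin genes are so alike that probe sets may share signal. TPPP, which polymerizes microtubules, was below the floor on all 4-week arrays and at least 3.65-fold lower (signals 45.6, 60.7 and 71.7 at 1 week, adjusted p = 3.2e-06). The rises were in folding factors and in TUBD1, or delta tubulin (1.07), with the cofactor TBCC at 129, 189.8 and 111 at 1 week and 447, 479 and 443 at 4 weeks (log2 change 1.71 ± 0.18, SE, adjusted p = 7.89e-07), and the alpha tubulin TUBA1B did not pass (-0.25). Motors and proteins that bind microtubules were higher in 12 of 38 and lower in 3 (31.6% higher and 7.89% lower, with 11 and 8 after quantile normalization), the first share close to that of all genes. APC and CLASP2, which stabilize microtubule ends, rose by 1.74 and 1.55, DYNC1LI1, of cytoplasmic dynein, by 1.45 and the mitochondrial motor KIF1B by 1.27. MAP1A, DCTN1 and DCTN3 were the 3 that fell (-1.12, -0.89 and -0.50), and STMN1, a depolymerizer, had a change of 0.13 that did not pass. Actin and contractile genes fell in 14 of 31 and rose in 2, CNN3 and ACTN1 (0.87 and 0.46), the latter not past the test, at -0.25, as the mean of its probe sets. TAGLN, or SM22, was at 118, 123 and 83.1 at 1 week and 33.5, 34.8 and 26.6 at 4 weeks (log2 change -1.76 ± 0.22, SE, adjusted p = 5.19e-06). MYLK, the myosin light chain kinase, fell by 1.62, ACTG2 by 1.31, TPM1 by 1.09 and ACTB by 0.3 on the log2 scale (adjusted p = 0.0184).

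Matrix genes fell in 16 of 49 (6.12% higher and 32.7% lower) and rose in 3, the basement membrane chains LAMB1 (0.67), COL4A6 (0.46) and COL4A1 (0.45). Beside FN1 and COL3A1, PCOLCE, an enhancer of procollagen cleavage, was at 531, 474 and 462 at 1 week and 139, 161 and 185 at 4 weeks (log2 change -1.61 ± 0.15, SE, adjusted p = 3.19e-07) and the proteoglycan BGN fell by 1.31. COL1A2, of type I collagen, was at 3576, 3126 and 3048 at 1 week and 2884, 2579 and 2305 at 4 weeks, and its log2 change of -0.33 did not pass. Of markers of mesenchymal cells and fibroblasts 4 of the 31 measured members were higher (12.9%) and 16 lower (51.6%) (median -0.59), a list that shares FN1, COL3A1 and other genes with the matrix list. LGALS1, galectin-1, was at 623, 725 and 725 at 1 week and 127, 136 and 157 at 4 weeks (log2 change -2.31 ± 0.17, SE, adjusted p = 4.73e-08), the factors TWIST1 and SNAI2 fell by 1.82 and 1.22, and VIM, vimentin, did not pass (-0.045). ZEB1 and ZEB2, repressors of epithelial genes, went the other way (2.02 and 1.89), as did IGFBP3 and ANXA1 (1.11 and 0.45). Among proteases and their inhibitors 6 of the 32 measured members were higher (18.8%) and 8 lower (25%): CAST, calpastatin, and ADAM9 rose by 1.84 and 1.52, and CAPN6 fell by 1.88. Among integrins, cadherins and their kin 7 of the 40 measured members were higher (17.5%) and 9 lower (22.5%), with ITGA4 and CDH12 at the top (1.96 and 1.46) and CTNND2, delta-catenin, at the bottom (-1.59).

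In the lists of immune signalling more genes were lower than higher at 4 weeks. In the interferon response 4 of the 30 measured members were higher (13.3%) and 15 lower (50%) (median -0.43). USP18, which removes ISG15 from proteins, was at 114, 133 and 108 at 1 week and 35.9, 24.4 and 35.7 at 4 weeks (log2 change -1.90 ± 0.23, SE, adjusted p = 3.32e-06), and ISG15, IFITM2 and IRF7 fell by 1.11, 1.15 and 0.98. The 4 that rose were the DNA sensor IFI16 (log2 change 1.53 ± 0.21, SE, adjusted p = 1.17e-05), IRF2, a repressor of interferon genes, and the RNA sensors RIGI and IFIH1 (1.43, 1.31 and 1.23). No gene of HLA class I and peptide loading rose and 6 of 15 fell, with HLA-B at 2173, 2054 and 2264 at 1 week and 939.8, 953 and 859.9 at 4 weeks (log2 change -1.24 ± 0.19, SE, adjusted p = 3.79e-05). HLA-G, HLA-F and the loading factor TAPBP fell by 1.08, 0.95 and 0.88, though probe sets of these near-identical HLA genes may share signal, and B2M, the common light chain, did not pass (log2 change -0.18 ± 0.078, SE, adjusted p = 0.0574). In the NF-kappa-B and inflammatory list 3 of the 22 measured members were higher (13.6%) and 10 lower (45.5%). CHUK, the kinase IKK-alpha, was at 46.6, 50.0 and 33.1 at 1 week and 207, 200.4 and 168 at 4 weeks (log2 change 2.17 ± 0.20, SE, adjusted p = 2.88e-07), NFKBIA, the inhibitor of NF-kappa-B, and IER3 fell by 1.54 and 1.55, and TNF lay below the floor on all 4-week arrays, at least 3.67-fold lower (adjusted p = 8.02e-07). Of genes of cell death 11 of the 40 measured members were higher (27.5%) and 7 lower (17.5%), against 11 and 12 after quantile normalization. The death ligand FASLG and the adaptor TRADD fell by 1.76 and 1.56, CASP8 and its partner CASP8AP2 rose by 1.41 and 1.62, and BIRC5, survivin, did not pass (-0.34).

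In the list of CDK inhibitors, pocket proteins and quiescence genes, which holds CDKN1B, 11 of the 29 measured members were higher (37.9%) and 5 lower (17.2%), not far from the shares of all genes. TOB1, an antiproliferative factor, was at 46.6, 49.9 and 53.6 at 1 week and 261, 241 and 253 at 4 weeks (log2 change 2.33 ± 0.17, SE, adjusted p = 2.74e-08), and the pocket proteins RBL1 (1.65), RBL2 (1.36) and RB1 (1.19) and cyclin G1, CCNG1 (1.57), were higher too. CCND2 had a log2 change of 0.19 that did not pass, and the 5 that fell were CDK5, CCND1, KLF6, CDKN2D and CDK4, from -0.97 to -0.28. Of genes of DNA replication 11 of the 55 measured members were higher (20%) and 16 lower (29.1%), against 6 and 19 after quantile normalization: the helicase RECQL4 fell by 1.98 and GINS4 by 1.66, while PRIM2, of primase, and ORC2, of the origin recognition complex, rose by 2.10 and 1.57, and RRM2 and MCM2 did not pass (-0.61 and -0.35). In G2 and mitosis 14 of the 60 measured members were higher (23.3%) and 10 lower (16.7%), against 12 and 13 after quantile normalization, with WEE1, a kinase that delays mitosis, up by 1.40 and AURKB down by 1.24. Of p53 and its targets 10 of the 22 measured members were higher (45.5%) and 3 lower (13.6%), against 7 and 6 after quantile normalization, with MDM4 at 7.94, 16.5 and 15.9 at 1 week and 105, 72.3 and 48.7 at 4 weeks (log2 change 2.15 ± 0.25, SE, adjusted p = 2.2e-06), GADD45A up by 1.84 and IER3, POLH and FAS down. The 1-week signals of MDM4 were at or near the floor of 16, and its rise is understated. DNA damage signalling and repair was higher in 30 of 68 and lower in 6 (44.1% higher and 8.82% lower, with 21 and 16 after quantile normalization), and the median went from 0.30 to 0.085 under that normalization. The median of all genes went from 0.032 to -0.081 with it, and their counts from 2794 higher and 1895 lower to 2310 and 2630. REV3L, the catalytic subunit of the translesion polymerase zeta, was at 86.7, 96.0 and 84.7 at 1 week and 636, 521 and 433 at 4 weeks (log2 change 2.56 ± 0.14, SE, adjusted p = 1.03e-08), followed by FANCF (1.84), XPA (1.67) and TDP2 (1.60), of crosslink repair, excision repair and removal of trapped topoisomerase. PARP1 did not pass (-0.076).

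Of splicing factors and hnRNP proteins 30 of the 83 measured members were higher (36.1%) and 12 lower (14.5%), led by MBNL2 (85.1, 80.8 and 64.5 at 1 week and 443, 318 and 266 at 4 weeks; log2 change 2.13), QKI (2.04), the splicing kinase CLK1 (2.01) and the neural PTBP2 (1.65), with SNRPE at 0.059, not past the test. Of chromatin silencing factors 15 of the 42 measured members were higher (35.7%) and 4 lower (9.52%), against 14 and 9 after quantile normalization (all genes 30.5% and 20.7%). HDAC4 and HDAC9, class IIa histone deacetylases, rose by 2.16 and 2.06, SIRT1, the NAD-dependent deacetylase, from 155, 133 and 207 to 724, 635 and 469 (log2 change 1.88 ± 0.18, SE, adjusted p = 4.23e-07) and RCOR3 by 1.70, while DNMT1 did not pass (0.23). Gene symbols that begin with ZNF, most of them zinc finger repressors, were higher in 75 of 179 and lower in 19 (41.9% higher and 10.6% lower, with 67 and 35 after quantile normalization; median 0.35), with ZNF141 (2.52), ZNF184 (2.13) and ZNF322 (1.92) among the highest. Of histones and their chaperones 4 of the 18 measured members were higher (22.2%) and 5 lower (27.8%): HIRA and ASF1A, of replication-independent deposition, rose (1.30 and 1.19) and ASF1B, of dividing cells, was at 683, 720.3 and 645 at 1 week and 195, 174 and 381 at 4 weeks (log2 change -1.54 ± 0.29, SE, adjusted p = 0.000232), with H2AX and H2BC12 down by 1.43 and 1.27. Cytosolic ribosomal proteins moved little: 4 of the 52 measured members were higher (7.69%) and 9 lower (17.3%), none by 2-fold, from -0.51 for FAU to 0.67 for RPLP2. Of translation factors 11 of the 43 measured members were higher (25.6%) and 8 lower (18.6%), against 10 and 10 after quantile normalization, the cap-binding EIF4E and the release factor ETF1 rising by 0.97 and 0.95, and EEF1A1 had a change of 0.052 that did not pass.

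In lipid metabolism 4 of the 19 measured members were higher (21.1%) and 7 lower (36.8%) for cholesterol. The median of this list was -0.13. INSIG1, HMGCS1 and MSMO1 rose by 1.29, 0.96 and 0.95, EBP, 1 of the 7 that were lower, fell by 0.88 and DHCR7 did not pass (-0.26). For fatty acids 5 of the 17 measured members were higher (29.4%) and 2 lower (11.8%), against 5 and 5 after quantile normalization: ACSL4, which activates arachidonic acid, rose by 1.93 beside FABP7, and the regulators of lipid droplets G0S2, at 226, 220.0 and 246 at 1 week and 55.1, 48.7 and 54.5 at 4 weeks (log2 change -2.13 ± 0.19, SE, adjusted p = 2.17e-07), and PLIN2 (-1.91) were the 2 that fell. Of transporters and enzymes for xenobiotics 7 of the 27 measured members were higher (25.9%) and 3 lower (11.1%), against 6 and 6 after quantile normalization, with the exporter ABCC4, CYP3A5 and the receptor AHR up by 1.48, 1.36 and 1.32 and the epoxide hydrolase EPHX1 down by 1.39. In the insulin and IGF list 8 of the 32 measured members were higher (25%) and 10 lower (31.2%). IGFBP4 was at 1187, 1168 and 993 at 1 week and 161, 154 and 361 at 4 weeks (log2 change -2.42 ± 0.33, SE, adjusted p = 1.01e-05), IRS1 rose by 2.18, PIK3CB by 1.31, and PIK3CD fell by 1.47. Of the WNT pathway 9 of the 30 measured members were higher (30%) and 5 lower (16.7%), against 9 and 8 after quantile normalization, with TCF7L2 and FZD5 up (1.92 and 1.88) and TCF7L1 down (-1.47); of TGF-beta and BMP signalling 16 of the 45 measured members were higher (35.6%) and 9 lower (20%), with SMAD4, SMAD7 and CHRDL1 up (1.58, 1.37 and 1.29) and ID2 down (-1.21); of MAP kinases and early response genes 10 of the 32 measured members were higher (31.2%) and 6 lower (18.8%), with MAPK9 and IER5 up (1.85 and 1.67) and ETV5 down (-1.57). After quantile normalization the median of the WNT list turned from 0.13 to -0.089 and that of the insulin and IGF list from 0.041 to -0.19. That of all genes went from 0.032 to -0.081, so that the WNT list then lay close to all genes.

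Of genes tied to Parkinson disease 5 of the 19 measured members were higher (26.3%) and 5 lower (26.3%), against 2 and 7 after quantile normalization. DNAJC6, or auxilin, which uncoats synaptic vesicles, was at 52.3, 59.2 and 60.9 at 1 week and 218, 183 and 189 at 4 weeks (log2 change 1.77 ± 0.33, SE, adjusted p = 0.000212), VPS13C, a lipid transfer protein between organelles, rose by 1.36 and ATP13A2, a lysosomal polyamine exporter, fell by 0.97. SYNJ1, synaptojanin, rose by 2.08 on its brightest probe set, and after quantile normalization, where another probe set was the brightest, it had a log2 change of -0.21 that did not pass. PARK7, which encodes DJ-1, did not pass with 3391, 3295 and 3242 at 1 week and 3659, 3543 and 3299 at 4 weeks (log2 change 0.08 ± 0.074, SE, adjusted p = 0.382). Of genes that process the amyloid precursor and apolipoproteins 6 of the 23 measured members were higher (26.1%) and 9 lower (39.1%), against 3 and 10 after quantile normalization. Besides BACE2, CLU, clusterin, was at 175, 172 and 177 at 1 week and 35.3, 48.7 and 64.6 at 4 weeks (log2 change -1.86 ± 0.32, SE, adjusted p = 9.75e-05), APBB1, an adaptor that binds the precursor, and APOD fell by 1.69 and 1.56, and APP itself did not pass (log2 change 0.21 ± 0.19, SE, adjusted p = 0.369).

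**Figure D3:**
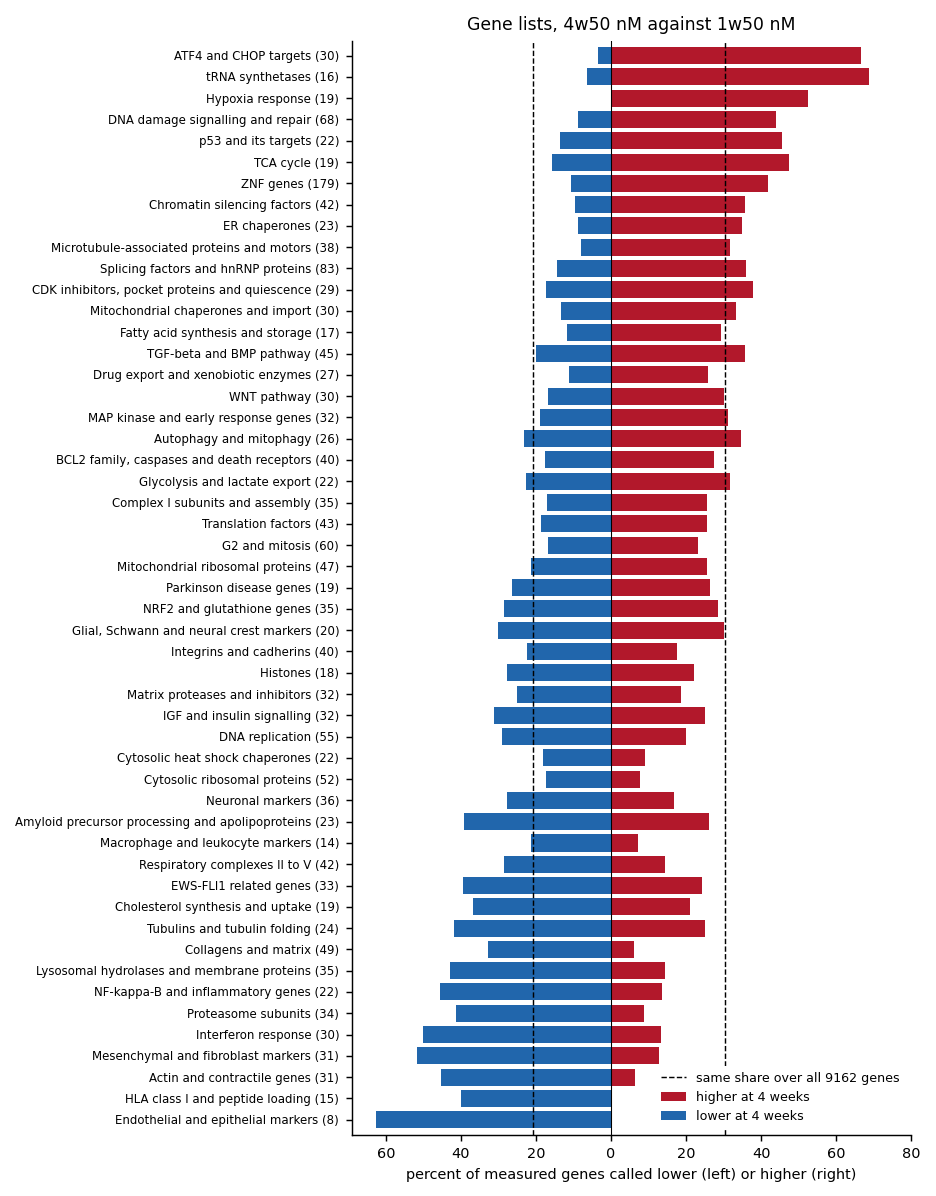
For each gene list, with the number of measured members in brackets, the percent of members called higher (red, to the right) and lower (blue, to the left) at 4 weeks, with dashed lines at the 30.5% and 20.7% of all 9162 genes. The targets of ATF4 and CHOP and the tRNA synthetases reach furthest to the right, and the HLA class I genes and the endothelial and epithelial markers have no member called higher.

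Markers of the line were present at both weeks. CD99 read 3021 to 3231 at 1 week and 2067 to 2607 at 4 weeks, NKX2-2 read 1309 to 1519 and 1241 to 1345, and STEAP1 read 1888 to 2321 and 2690.4 to 3202. FLI1, whose 3' part belongs to the fusion gene of Ewing tumours, was at 314, 279 and 368 at 1 week and 517, 542 and 527 at 4 weeks (log2 change 0.73 ± 0.15, SE, adjusted p = 0.000654). Of genes tied to the EWS-FLI1 fusion 8 of the 33 measured members were higher (24.2%) and 13 lower (39.4%): the hedgehog effector GLI1, caveolin CAV1, ID2 and SOX2 fell by 1.41, 1.29, 1.21 and 1.16, and JAK1 did not pass (-0.14). Of neuronal markers 6 of the 36 measured members were higher (16.7%) and 10 lower (27.8%): BCHE and DLG4 rose by 1.52 and 1.40, DLK1 was at 588, 555 and 435 at 1 week and 110.5, 113 and 198 at 4 weeks (log2 change -1.95 ± 0.28, SE, adjusted p = 1.52e-05), SLC18A3, the vesicular acetylcholine transporter, fell by 1.41, and MAPT, tau, did not pass (-0.13). Of glial and neural crest markers 6 of the 20 measured members were higher (30%) and 6 lower (30%), against 5 and 8 after quantile normalization, with SOX9 down by 1.18 and TFAP2B not past the test (-0.37). Markers of other cell types were few: of 8 endothelial and epithelial markers measured of 20 listed, 5 fell and 0 rose, and their summed signal was 3727 to 3816 at 1 week and 1805 to 2822 at 4 weeks, with KRT18 down (log2 change -0.89 ± 0.15, SE, adjusted p = 9.28e-05). VWF, CDH1 and KRT19 stayed below 16 on all 6 arrays. PECAM1 read 105 to 115 at 1 week and 76 to 84 at 4 weeks, and EPCAM read 33 to 45 and 53 to 62. Of 14 leukocyte markers measured of 23 listed 1 rose, AIF1 (1.64), and 3 fell. Their sum was 1495 to 1589 at 1 week and 1372 to 1641 at 4 weeks. CD14 was below 16 throughout. PTPRC was present, at 197 to 286 at 1 week and 164 to 267 at 4 weeks, and its change did not pass (log2 change -0.25 ± 0.64, SE, adjusted p = 0.766). GAPDH, at 8669, 8634 and 8691 at 1 week and 7775, 8684 and 8408 at 4 weeks, did not pass either (log2 change -0.066 ± 0.072, SE, adjusted p = 0.469).

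The same step from 1 to 4 weeks was read in vehicle and in 5 nM cells, on arrays that the 50 nM comparison does not share. In vehicle 264 genes (2.88%) were higher and 66 (0.72%) lower, and with 5 nM 1868 (20.4%) were higher and 1587 (17.3%) lower. Over all 9162 genes tested, which share arrays and so are no replicates of each other, the change at 50 nM correlated at r = 0.67 with that at 5 nM and at r = -0.43 with that in vehicle. Of the 1092 genes that rose at least 2-fold at 50 nM, 263 also did at 5 nM, which is 24.1% of them and 70.1% of the 375 that did so at 5 nM. Of the 419 that fell at least 2-fold, 162 did at 5 nM, 38.7% of them and 51.3% of the 316. In vehicle the overlap in the same direction was 2 and 0 genes, while 11 of the rises fell and 32 of the falls rose there at least 2-fold. The falls at 50 nM had a median log2 change of -0.83 at 5 nM and 0.32 in vehicle, and the rises 0.73 and -0.15. The 14 largest falls had a median of 0.11 at 5 nM and 2 of the 14 were lower there. The 14 largest rises had a median of 1.49 at 5 nM, against 2.76 at 50 nM, and 12 of the 14 were higher there. Both sets were picked for the size of their change at 50 nM, which favours a smaller change at 5 nM. The hybridization controls, given above, were lower on the 4-week arrays of both doses and not in vehicle, and their part in this likeness was not tested.

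**Figure D4:**
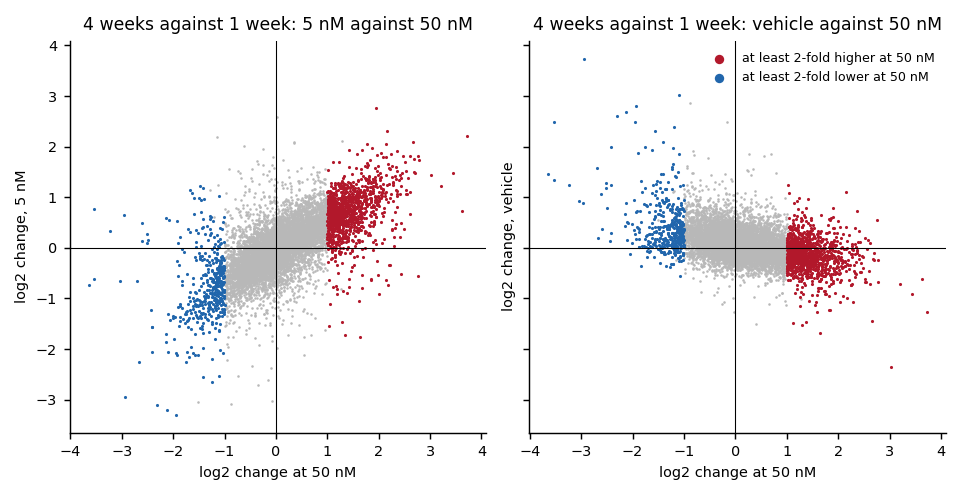
The log2 change from 1 to 4 weeks at 5 nM (left, y axis) and in vehicle (right, y axis) against that at 50 nM (x axis), a point per gene, with the genes changed at least 2-fold at 50 nM in colour. The colours lie along the diagonal for 5 nM (r = 0.67) and lean the opposite way for vehicle (r = -0.43).

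The change at 50 nM differed from that in vehicle, by the test of the difference, in 4108 genes, more positive in 2226 (24.3%) and more negative in 1882 (20.5%), and 2163 of these differences were at least 2-fold. The vehicle arrays of 1 week varied most of all groups (r within the group 0.914 to 0.981, against 0.975 to 0.989 for 4w50 nM). NPTX2, which at 50 nM went from 157, 165 and 256 to 18.2, 12.2 and 50.7, rose in vehicle by 3.74 on the log2 scale and so differed most. Of the ATF4 and CHOP list 22 of 30 members differed upward from vehicle and 0 downward, where 5 of them fell with time (-0.45 in the median). Matrix genes differed downward in 23 of 49, and 10 of them rose in vehicle (median 0.35). From the change at 5 nM the 50 nM change differed in fewer genes, more positive in 739 (8.07%) and more negative in 138 (1.51%), 442 of them at least 2-fold. This count rests on the labels in doubt: with the exchange it was 111. Of the 14 largest rises 10 differed from 5 nM with the labels as given and 2 with the exchange. Of the 14 largest falls 7 and 0 did. HSPB8, with a log2 change of -3.54 at 50 nM, had a change of 0.76 at 5 nM, a difference that did not pass with the exchange (adjusted p = 0.0371 and 0.0983), and CPE, carboxypeptidase E, up from 98.0, 129 and 110.0 to 608, 723 and 493 at 50 nM, had -0.51. EPAS1, the oxygen-sensing factor, rose at 50 nM (1.35) and fell at 5 nM (-1.72). Of the ATF4 and CHOP list 2 members differed from 5 nM, where 17 were higher.

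The median change was highest for the genes of chromosomes 4 and 13 (0.42 and 0.41), where 152 of 309 and 81 of 167 genes were higher, and lowest for chromosomes 22 and 19 (-0.31 and -0.29), where 87 of 232 and 225 of 605 were lower. At 5 nM the medians of chromosomes 4 and 13 were 0.29 and 0.26 and those of 22 and 19 were -0.12 and -0.22, the highest being that of chromosome 8 and the lowest that of chromosome 19. Among the leading genes of these chromosomes, AP1AR on 4 and PIBF1 and NBEA on 13 rose (2.48, 2.41 and 2.35), and APOL2 on 22 and S1PR4 on 19 fell (-2.42 and -2.0). On chromosomes 10 and 6 the medians were 0.28 and 0.28, and on 6 that at 5 nM was -0.010. By the median difference between 50 nM and 5 nM, chromosomes 8 and 6 parted most, in opposite directions (-0.35 and 0.33, and -0.33 and 0.27 with the exchange). By the test of the difference 108 of the 500 genes of chromosome 6 changed more positively at 50 nM than at 5 nM. On chromosome 3 it was 98 of 522, and over all genes 8.07%. The 359 genes of chromosome 8 had a median change of -0.18 at 50 nM, 0.29 at 5 nM and 0.11 in vehicle. Relative to all genes, and to each gene's mean over 18 arrays, the chromosome stood at -0.26, -0.26 and -0.23 on the 4w50 nM arrays and at -0.083, -0.046 and 0.052 on the 1w50 nM arrays. The 4w5 nM arrays stood at 0.27, 0.29 and 0.36, with no overlap. By the test of the difference 38 of these genes (10.6%, against 1.51% of all) changed more negatively at 50 nM than at 5 nM, so that 38 of the 138 such genes lay on 1 chromosome, and with the exchange it was 9 of 37. Without 4w50 nM replicate 1 the 38 became 14, and the counts of other chromosomes fell too, from at most 13 to at most 5. Without replicate 3 it was 40 of 189. The chromosome's values on the vehicle arrays of 1 week ran from -0.41 to 0.27, wider than between the 50 nM groups. Among the largest rises and falls, GFRA2, ADRB3 and CYP11B2, which fell, and SNX16, which rose, are genes of chromosome 8, and at 5 nM their changes were 0.65, 0.10, -2.26 and 1.73.

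**Figure D5:**
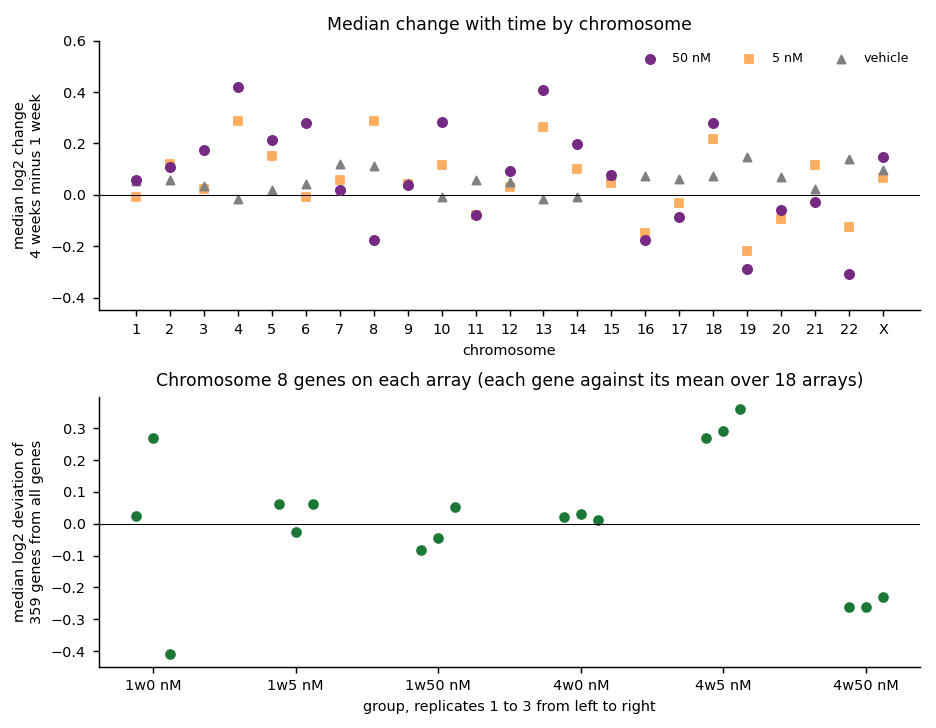
Top, the median log2 change from 1 to 4 weeks of the genes of each chromosome at 50 nM, at 5 nM and in vehicle; bottom, the median log2 deviation of the 359 measured chromosome 8 genes on each of 18 arrays, relative to all genes. The 4w50 nM arrays (-0.26, -0.26 and -0.23) lie below and the 4w5 nM arrays (0.27, 0.29 and 0.36) above zero, and the 1w0 nM arrays spread from -0.41 to 0.27.

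Genes that rose were longer than genes that fell. By the span of the gene in RefSeq (GRCh38.p14), introns included, the median was 57.9 kb for the genes at least 2-fold higher, 19.6 kb for those at least 2-fold lower and 30.8 kb for all 9157 genes with a span. In the fifth of genes with the shortest spans 15.9% were higher and 31.2% lower, and in the fifth with the longest 41.2% were higher and 13.8% lower. Across genes, Spearman's rho between span and change was 0.24 at 50 nM, 0.24 at 5 nM and -0.083 in vehicle, a description over genes that share arrays. The median span was 15.5 kb for the genes of chromosome 19 and 29.2 kb for those of chromosome 22, the latter close to that of all genes. It was 48.8 kb and 58.6 kb for chromosomes 4 and 13, 21.9 kb for chromosome 6, whose median change was 0.28, and 38.7 kb for chromosome 8. The part of span in the chromosome medians was not tested. Promoter GC was close between the groups, with a median of 65.3% for the genes at least 2-fold higher and 65.7% for those lower.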

How the data were processed

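SK-N-MC RNA was hybridized to 18 Affymetrix human genome arrays, 3 in each of 6 groups. The authors normalized the arrays and deposited linear intensity values, model-based expression indexes from dChip, whose normalization method and version are not given in the sources used here. Array medians ran from 87 to 102, and the number of arrays limits the precision. Scanner files were not analysed here.

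The deposited intensity values were raised to a floor of 16 and taken to log2, which understates changes of dim genes. Probe sets of 1 gene by the platform annotation (19065 of 22283) that reached 50 on at least 3 arrays entered, with the probe set of highest mean standing for its gene. Group means were fitted with limma 3.58.1 in R 4.3.3 (trend, 12 residual degrees of freedom), p-values were adjusted over 9162 genes, and a gene was called at an adjusted p below 0.05. Groups and replicate numbers came from the labels. Whether the arrays of a group stem from separate cultures is not tied to arrays, so that p-values cover no more than the spread between the arrays, which may be technical. The fit was tested on simulated data.

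The text names the 14 largest rises and falls without overlap, up to 4 called and 2 uncalled genes of each list, reference genes, the largest differences from vehicle and 5 nM, and leading genes of 6 chromosomes. Other genes were named after their values were seen. The comparison and the 51 gene lists, each given with its counts, were chosen with earlier results of these data known. Alternatives were other floors, normalizations, filters, probe set rules, fits, the methods' t-test, each array left out, the exchange of labels and, chosen after seeing the data, both 50 nM arrays numbered 3 left out.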

Additional observations from a re-analysis of the deposited data

Results flagged for a closer look

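A difference between groups drew attention to these results, by the test of the difference itself in limma. The change with time at 50 nM differed at least 2-fold from that in vehicle in 2163 genes. Among these NPTX2 differed by -6.68 on the log2 scale, FN1 by -6.03, CRIP1 by -5.10, LGALS1 by -4.92, HSPB8 by -4.89 and G0S2 by -4.82, all falling at 50 nM. FABP7 differed by 5.38 and the amino acid transporter gene SLC6A15 by 4.98. The vehicle arrays of 1 week varied most of the 6 groups.

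The change with time at 50 nM differed at least 2-fold from that at 5 nM in 442 genes. HSPB8 differed by -4.30, the receptor gene GFRA2 by -3.62, neither of which passed with the exchange of the labels in doubt (adjusted p = 0.0983 and 0.0503), and ZIC1, a zinc finger factor of the neural crest, by -3.34. AIF1, a gene of macrophages, differed by 3.41, FRMD4B by 3.31, EPAS1 by 3.07, the crosslinking enzyme gene LOXL1 by 2.94 and CPE by 2.94. FRMD4B reached the filter of 50 on the 4w50 nM arrays only. With the exchange 111 genes differed, and the cause was not tested.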

How the results depend on the processing

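The counts of genes at least 2-fold higher and lower at 4 weeks (1092 and 419) and differing from vehicle (2163) stayed within 1.5 times their value under all alternatives run but these. Counted as probe sets, which adds features, they were 1852, 630 and 3422, and quantile normalization gave 647 lower. Leaving out an array gave 978 to 1182 higher, 371 to 490 lower and 2013 to 2319 differing from vehicle. With both 50 nM arrays numbered 3 left out, chosen after seeing the data, they were 1238, 480 and 2340.

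The count that differed from 5 nM (442) was less steady. It was 678 as probe sets, 692 with array weights, 111 with the exchange of labels and 223 to 579 with an array left out, lowest without 4w50 nM replicate 1 and 265 without 1w5 nM replicate 2. The cause was not tested.

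Rises made up 59.6% of all called genes with the signals as deposited, 46.8% after quantile normalization and 55.1% after median scaling. Among genes changed at least 2-fold the share was 72.3%, 54.6% and 67.3%. Relative to the median of all genes, the medians of the cytosolic heat shock, ribosomal protein, translation factor and histone lists turned from below to above it under quantile normalization.

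With a replicate block the 4 counts were 1088, 416, 2151 and 389. The replicate numbers do not pair the arrays of 4 and 1 weeks, whose deviations correlated at -0.0081, -0.056 and 0.16. The methods' t-test on linear signals gave 1073 higher and 405 lower at the methods' threshold, and 1013 and 375 after Benjamini-Hochberg adjustment.

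Of the genes named, SYNJ1 turned from 2.08 to -0.21 under quantile normalization, where another probe set was read, and ACTN1 from 0.46 to -0.25 as the mean of its probe sets. MAPT, -0.13 and 0.17 as the mean of its probe sets, and LOXL1, -0.077 and from -0.32 to 0.054 (0.032 without 1w50 nM replicate 2) with an array left out, were not called in either case.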
